A study of Mus musculus with 45 samples.

Results

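Matrix and integrin genes were followed through neuroepithelial organoids that were left untreated or given retinoic acid (RA). The set is a list of 57 mouse genes for laminins, collagens, other basement membrane proteins, matrix glycoproteins, lecticans, integrin subunits with dystroglycan, and matrix proteases. A gene was kept when its mean over all 45 libraries was at least 0.5 CPM, the count scaled to library depth, which left 53 of the 57 listed genes and of 54532 genes in the table. The 4 genes below that limit were Lamc3 at 0.447 CPM, Col3a1 at 0.388 CPM, Col4a6 at 0.273 CPM and Col6a3 at 0.267 CPM. The lowest genes above it were Col9a1 at 1.02 CPM, Tnc at 1.14 CPM, Col14a1 at 1.16 CPM and Lamb3 at 1.22 CPM.

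The organoids were grown from R1, an established line of mouse embryonic stem cells, in Matrigel and N2B27 neural induction medium. On day 2, all-trans RA was added at 250 nM or left out, and RNA was collected on day 2 and at 7 later times, the earliest 8 h, the next 18 h and the rest 12 h apart from 30 h until 78 h afterwards. Each of the 15 cell populations had 3 biological replicates, and the values are raw counts per gene. All libraries come from the same R1 line, so that another line was not compared, and the sample labels have the dose in µM where the study's methods have nM.

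A basement membrane is a thin sheet on the basal side of an epithelium. Laminin trimers of an alpha, a beta and a gamma chain bind cells and polymerise, type IV collagen forms a second network, and nidogens and perlecan link them. Integrins are receptors made of an alpha and a beta chain, and dystroglycan is a receptor for laminin, agrin and perlecan. In the developing neural tube this sheet surrounds the neuroepithelium. Matrigel is itself a basement membrane extract from a mouse tumour, and its proteins are not seen by RNAseq of the organoids.

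A pair of genes shows how close together some of these genes lie. Col4a1 and Col4a2, which encode the chains of the most widespread type IV collagen, start head to head, and on GRCm38 their first exons overlap at chr8:11312805-11312826. The overlap is printed 5′ to 3′ on the strand of Col4a2, and the capitals mark a GC box, GGGCGG.
Col4a1 and Col4a2, shared start: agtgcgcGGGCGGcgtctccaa

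Promoter windows of RefSeq (GRCm38.p6), from 250 bases before to 50 bases after a gene's start, were found for 34 of the 53 genes, as 42 windows of 32851. GGGCGG on either strand was in 71.4% of the genes' windows and in 35.7% of all windows, and the median GC content was 60.8% against 52.7%. CCAAT was in 38.1% against 37.4%, and TATAAA was in 9.52% against 13.6%. The hexamer AGGTCA, a site of nuclear receptors, was in 4.76% of the genes' windows, those of Col11a1 and Col9a1, against 16.3% of all windows. Direct repeats of it spaced by 5, 2 or 1 bases were in none of the 42 windows and in 0.00913%, 0.00913% and 0.0396% of all windows. Windows of alternative starts and of neighbouring genes overlap, so that these shares are descriptions. The stretches of the Vtn and Col1a2 windows outside the exons annotated by GENCODE are shown because Vtn went from no counts on day 2 to a mean over 10 CPM with RA at 78 h and Col1a2 moved in opposite directions at early and late times. In Vtn, at chr11:78498870-78499090 (plus strand), the capitals mark TATAAA read on both strands, and in Col1a2, at chr6:4505370-4505492 (plus strand), they mark GGGCGG. The Col1a2 stretch lies before the start that RefSeq gives, but inside the longer gene that GENCODE places from 4504814.
Vtn upstream: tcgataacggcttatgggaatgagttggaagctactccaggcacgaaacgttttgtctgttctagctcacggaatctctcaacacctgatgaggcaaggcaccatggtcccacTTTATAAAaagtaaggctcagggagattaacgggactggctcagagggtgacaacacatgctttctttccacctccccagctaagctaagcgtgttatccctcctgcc
Col1a2 window: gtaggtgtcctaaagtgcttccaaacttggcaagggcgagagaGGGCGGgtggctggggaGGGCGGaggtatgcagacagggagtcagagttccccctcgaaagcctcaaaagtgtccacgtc

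Total counts per library lay between 17298632 and 39688686, so that 3 counts correspond to well under 1 CPM. The 9 neural progenitor markers summed to 479 to 499.9 CPM on day 2, and at 78 h to 1077 to 1242 CPM without and 1336 to 1503 CPM with RA, where 1 was higher with RA and none lower. The 7 pluripotency markers were still present, with sums of 3469 to 3604 CPM on day 2 and, at 78 h, of 1205 to 1374 CPM without and 328 to 553 CPM with RA, where 1 was higher and 3 lower. A set of 6 libraries stood apart from the rest in 4 genes of the Y chromosome, whose mean was 1.22 to 3.65 CPM there and 22.9 to 89.5 CPM in the other 39 libraries. These were RA-treated replicate 3 at 8 h, all 3 untreated libraries at 30 h and RA-treated replicates 1 and 3 at 30 h. The 30 h comparison therefore sets untreated libraries of this kind against a mixture, and the calls at 30 h are also given without RA-treated replicate 2, which leaves libraries of this kind alone. Over all genes, RA-treated replicate 2 at 30 h and RA-treated replicate 3 at 8 h were also the farthest from their fellow replicates, the chi-square averaged over genes being 41.5 to 109.6 in their 4 pairs and 1.97 to 14.8 in the other 41 pairs. Library numbers fall into an earlier and a later series. All libraries at 66 h and 78 h, RA-treated replicates 2 and 3 at 30 h, untreated replicate 3 at 54 h and replicate 3 of day 2 belong to the later series, and all others to the earlier, so that library series and late time cannot be told apart. At 30 h the later series holds RA-treated libraries alone, and leaving out replicate 2 still leaves 1 of them.

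The comparison of RA-treated with untreated organoids at each time asks which matrix and integrin genes respond to RA. A gene is described as higher or lower when edgeR's quasi-likelihood test gave a Benjamini-Hochberg adjusted p under 0.01 over all genes tested and the log2 fold change was over 1 in size. At 8 h, of 50 genes tested none was higher and Itga1 alone was lower, where 1.26% and 0.537% of all genes were higher and lower. At an unadjusted p under 0.05 with no minimum fold, 7 had a higher and 9 a lower level with edgeR, a limit for which no share of all genes was taken. At an adjusted p under 0.05 with no minimum fold, 0 had a higher and 4 a lower level, against 5.96% and 5.25% of all genes. DESeq2 called 0 higher and 1 lower, against 1.2% and 0.659%. An edgeR fit of all 45 libraries called 1 higher, against 2.66%. Without RA-treated replicate 3, 2 genes were higher and 1 lower, against 3.71% and 1.39% of all genes. At 18 h, 15 of 52 genes were higher and 2 lower, against 8.17% and 2.76% of all genes. At 30 h, 16 of 50 were higher and 1 lower, against 5.98% and 2.48%. Without RA-treated replicate 2 these counts were 19 and 1, against 8.96% and 4.54% of all genes. Of the 17 calls, 16 were kept and Agrn was lost. Nid1, Fbn1, Itga8 and Itgb8 passed as higher there but not with all libraries, at 1.118, 1.103, 1.155 and 1.025 on the log2 scale. The earlier library series, with RA-treated replicate 1 alone, gave the same counts of 19 and 1, against 7.87% and 4.35%. Without any of the 3 untreated libraries in turn, 8 or 9 were higher and none lower, against 2.23% to 2.48% and 1.30% to 1.45%.

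At 42 h, 17 of 53 genes were higher and 2 lower, against 7.49% and 4.96% of all genes. At 54 h, 17 of 52 were higher and 2 lower, against 7.17% and 5.99%. At 66 h, 15 of 53 were higher and 5 lower, against 7.06% and 4.44%. At 78 h, 12 of 53 were higher and 6 lower, against 7.66% and 4.03%. The median log2 fold change of the genes was 0.16 at 8 h, 0.88 at 30 h (0.76 without RA-treated replicate 2), 0.68 at 42 h and 0.35 at 78 h, where the median over all genes stayed within 0.05 of 0. Genes that were not tested had too few counts in both groups, and a gene with counts in only 1 group had to differ to be tested.

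**Figure D1:**
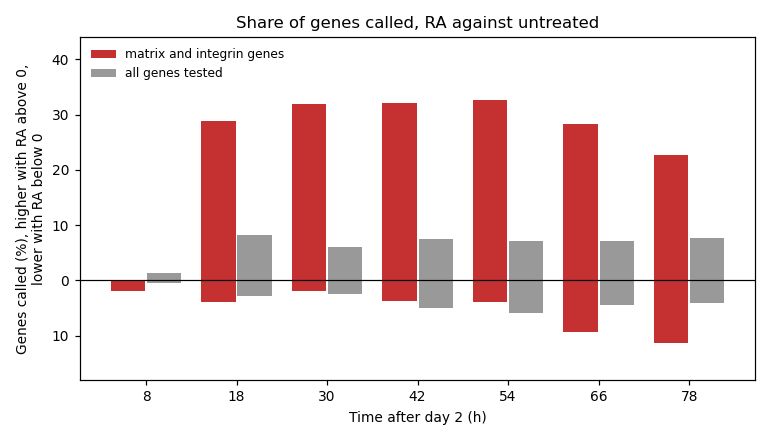
Percentage of genes higher (above 0) and lower (below 0) in RA-treated than in untreated organoids at each time after day 2, for the matrix and integrin genes tested (red, 50 to 53 genes) and for all genes tested (grey). The red bars for higher genes stand above the grey bars from 18 h to 78 h, and the red bars for lower genes extend further than the grey bars at 8, 18, 66 and 78 h.

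Over the 7 times, 25 genes were higher at 1 or more times and never lower, 5 were lower and never higher, 3 did both at different times and 20 did neither. These counts are from the fits with all libraries. The 5 genes higher at all 6 times from 18 h were Lama4, Col6a1, Col12a1, Fbn2 and Itgb3. The genes that moved in both directions were Col1a1, Col1a2 and Bcan. Together the 53 genes took 0.405% to 0.431% of all counts on day 2, 0.342% to 0.426% in untreated organoids and 0.447% to 0.601% in RA-treated organoids from 18 h on. In bulk RNA, fewer cells of a type and less RNA per cell cannot be told apart.

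**Figure D2:**
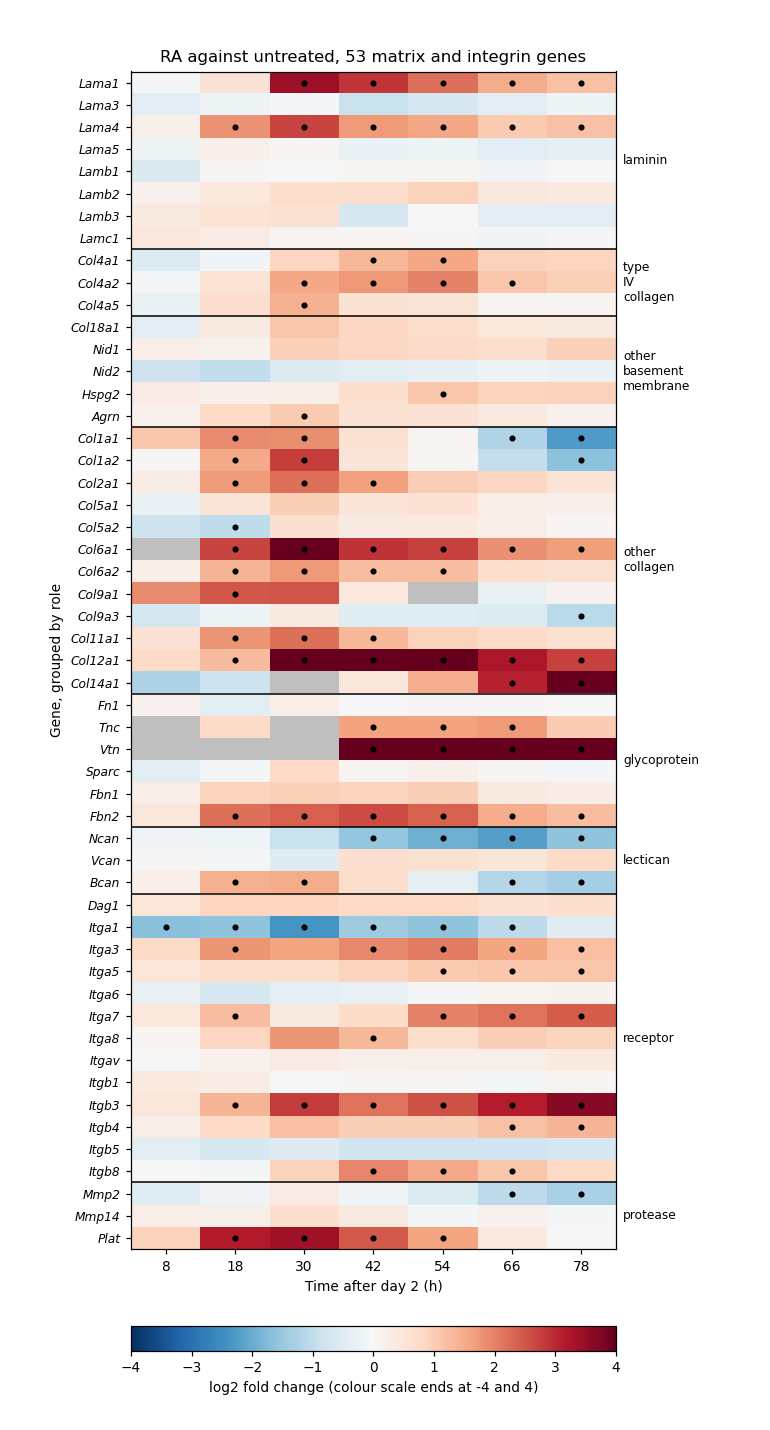
Log2 fold change of RA-treated against untreated organoids for 53 genes (rows, by role) at 7 times (columns, hours after day 2), with red for higher and blue for lower with RA, and the colour scale ending at -4 and 4. Dots mark genes that passed the test, grey cells genes not tested. Rows such as Fbn2 and Itgb3 are red throughout from 18 h, and Col1a1 and Bcan turn from red to blue.

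Among the 8 laminin chains, the alpha chains Lama1 and Lama4 were higher with RA, and the other 6 did not pass the test at any time. Lama1, the laminin alpha chain of early embryonic basement membranes, was at 6.73, 6.80 and 8.39 CPM in the day 2 libraries. At 30 h it was at 3.95, 5.79 and 3.32 CPM without RA and at 47.1, 53.6 and 36.8 CPM with RA. The RA-treated libraries were all far above the untreated ones, and the log2 fold change was 3.41 ± 0.246 (SE, adjusted p = 0.000135, edgeR). Without RA-treated replicate 2 it was 3.28. The untreated level then stood at 13.5 ± 3.04 CPM at 42 h and 47.7 ± 5.48 CPM at 78 h (SD, n = 3), while the RA-treated means lay between 96 and 121 CPM. At 78 h the log2 fold change was 1.17 ± 0.119 (adjusted p = 1.33e-05).

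Lama4, an alpha chain best known from vessels and mesenchyme, was at 1.09, 0.854 and 0.919 CPM without RA and at 7.47, 4.66 and 6.86 CPM with RA at 30 h. Its log2 fold change there was 2.71 ± 0.254 (adjusted p = 0.000407), 2.86 without RA-treated replicate 2, and the libraries of the groups did not overlap. Lamc1, the gamma chain of most laminins and the laminin gene with the highest CPM, was at 251, 319 and 325 CPM without RA and 333, 335 and 281 CPM with RA at 42 h. These libraries overlapped, with a log2 fold change of 0.07 ± 0.0968 (adjusted p = 0.565). Lamb1, its usual beta partner, had log2 fold changes between -0.12 and 0.12 from 18 h to 78 h, and -0.57 at 8 h. Without RA-treated replicate 2 its value at 30 h was -0.40 (adjusted p = 0.00019), under the minimum fold. Lama5, the alpha chain of many mature basement membranes, had -0.36 ± 0.0537 at 78 h (adjusted p = 0.000215), which misses the minimum fold. Per kb of exon the order of the alpha chains at 78 h was Lama5 above Lama1 in both arms, at 20.4 ± 0.785 and 4.93 ± 0.566 CPM per kb without RA and 15.7 ± 0.749 and 11 ± 2.08 CPM per kb with RA. On day 2, Lama1 stood at 0.755 ± 0.0974 CPM per kb, below Lama3 at 1.13 ± 0.156.

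Of the 3 type IV collagen genes, 2 were higher with RA at each of 30, 42 and 54 h. Col4a2 was at 23.3, 29.9 and 27.2 CPM without RA and 101, 109 and 112 CPM with RA at 54 h, its largest difference, with a log2 fold change of 1.98 ± 0.0846 (adjusted p = 2.53e-08). Col4a1 was at 47.6, 62.8 and 62.8 CPM without RA and 151, 175 and 184 CPM with RA at the same time, with 1.54 ± 0.103 (adjusted p = 6.63e-07). The head-to-head partners thus moved the same way, and no library of either group reached the other group for either gene. At 18 h, Col4a2 had 0.55 and Col4a1 -0.10 on the log2 scale. The first exons of these genes overlap and the strand setting of the counting is not given in the sources used here, so that reads in the 22 shared bases could go to either. Col4a5, an X-linked type IV chain, passed at 30 h alone, with 1.43 ± 0.147 (adjusted p = 0.000591), and 1.53 without RA-treated replicate 2.

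The other 5 basement membrane genes were abundant and moved less. Col18a1, whose C-terminal end is endostatin, had the highest CPM of them, with 352, 435 and 445 CPM without RA and 791, 766 and 635 CPM with RA at 42 h. The groups did not overlap, and the log2 fold change of 0.82 ± 0.0970 (adjusted p = 5.19e-05) misses the minimum fold. Hspg2, which encodes perlecan, passed at 54 h with 1.10 ± 0.0907 (adjusted p = 3.14e-06), and Agrn, which encodes agrin, passed at 30 h with 1.06 ± 0.145 (adjusted p = 0.00199). Without RA-treated replicate 2 the Agrn value was 0.88, under the minimum fold, and the call was lost. The nidogens, linkers of laminin and collagen networks, had log2 fold changes of opposite sign at 18 h and at 78 h. Nid2 was at 353, 283 and 366 CPM without RA and 144, 186 and 168 CPM with RA at 18 h, a log2 fold change of -0.998 ± 0.0939 (adjusted p = 2.03e-06) that falls just short of the minimum fold. Nid1 had 0.16 at 18 h and 0.95 ± 0.0671 (adjusted p = 7.47e-07) at 78 h, again just short, where Nid2 had -0.27. Without RA-treated replicate 2, Nid1 had 1.12 at 30 h and passed. The RA effect of both genes was higher at 78 h than at 18 h, by 0.76 and 0.71. Nid1 and Nid2 each overlap exons of a gene on the opposite strand.

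**Figure D3:**
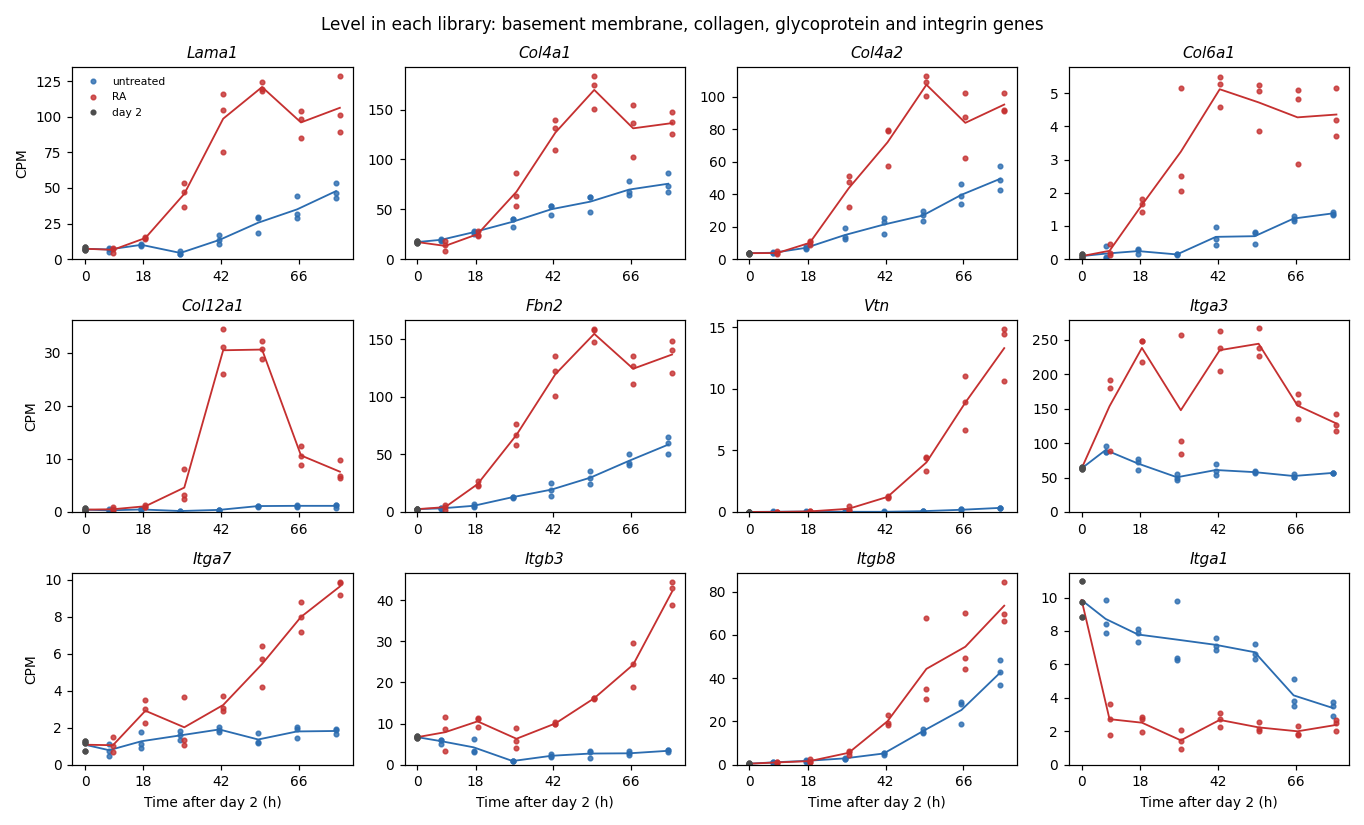
CPM (vertical axes, linear, from 0) of 12 genes in each library against time after day 2, with day 2 in grey, untreated in blue and RA-treated in red, lines joining the means of 3 libraries. Lama1, Col4a1, Col4a2 and Fbn2 climb in both arms and stand higher with RA, Col12a1 peaks at 42 h to 54 h, Vtn and Itgb3 climb late with RA, and Itga1 stands lower with RA.

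Of the 12 other collagen genes, 8 were higher and 1 lower with RA at 18 h, 7 of 11 tested were higher at 30 h with and without RA-treated replicate 2, and 3 were higher and 3 lower at 78 h. Col12a1, a collagen that binds to the surface of fibrils, was at 0.314, 0.456 and 0.397 CPM without RA and 31.0, 34.4 and 26.0 CPM with RA at 42 h. Its log2 fold change of 6.26 ± 0.176 (adjusted p = 2.17e-09) was the highest fitted value of the 53 genes at any time. The RA-treated mean then dropped from 30.6 CPM at 54 h to 7.59 CPM at 78 h, where the difference was still 2.74 on the log2 scale. Col6a1, a chain of the beaded-filament collagen VI, was at 0.150, 0.122 and 0.153 CPM without RA and 2.51, 5.15 and 2.04 CPM with RA at 30 h. The log2 fold change was 4.46 ± 0.525 (adjusted p = 0.00105), and 3.92 without RA-treated replicate 2, the library with the highest value. The call was lost without untreated replicate 1 or 2, with adjusted p of 0.0104 and 0.0103. Its partner Col6a2 was higher at 18, 30, 42 and 54 h, with log2 fold changes from 1.22 to 1.74, the last of these at 30 h both with and without RA-treated replicate 2.

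Col2a1, Col11a1 and Col9a1, which encode chains of cartilage-type fibrils, were higher with RA at 18 h, while Col9a3, another chain of collagen IX, had -0.22 on the log2 scale and did not pass. Col2a1, the chain of collagen II and the gene with the highest CPM of these 12, was at 36.7, 53.9 and 50.3 CPM without RA and 144, 154 and 142 CPM with RA at 42 h, with a log2 fold change of 1.63 ± 0.114 (adjusted p = 1.04e-06). Col11a1, which assembles with it, was higher at 18, 30 and 42 h, by up to 2.20 on the log2 scale at 30 h, where it was 2.3 without RA-treated replicate 2. Neither passed from 54 h on, as the untreated level of Col2a1 climbed to a mean of 120 CPM at 78 h against 173 CPM with RA. Col9a1, a chain of collagen IX, which decorates these fibrils, was at 1.04, 0.990 and 1.07 CPM without RA and 6.47, 5.77 and 4.87 CPM with RA at 18 h. The log2 fold change was 2.47 ± 0.179 (adjusted p = 1.89e-07), and at 78 h, with means of 0.329 and 0.363 CPM, it was 0.17 ± 0.351.

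Both chains of collagen I, the fibrillar collagen of connective tissue, moved in opposite directions early and late. Col1a1 was at 0.767, 0.784 and 1.73 CPM without RA and 4.82, 3.92 and 4.04 CPM with RA at 18 h, a log2 fold change of 1.88 ± 0.259 (adjusted p = 5.45e-05). At 78 h it was at 13.8, 15.4 and 22.2 CPM without RA and 3.79, 3.89 and 2.98 CPM with RA, a log2 fold change of -2.25 ± 0.178 (adjusted p = 1.73e-06). The groups did not overlap at either time, and it was the untreated level that climbed while the RA-treated level peaked at a mean of 8.68 CPM at 30 h. Col1a2, part of whose promoter window is printed above, was at 1.80, 1.65 and 1.52 CPM without RA and 3.95, 4.99 and 5.18 CPM with RA at 18 h, with 1.53 ± 0.173 (adjusted p = 1e-05). At 30 h it was at 0.865, 1.28 and 0.715 CPM without RA and 3.20, 11.6 and 4.30 CPM with RA. The log2 fold change there was 2.76 ± 0.558 (adjusted p = 0.0097), and 1.98 without RA-treated replicate 2, the highest library. At 78 h it was at 19.6, 22.1 and 31.0 CPM without RA and 8.75, 8.22 and 6.13 CPM with RA, with -1.64 ± 0.167 (adjusted p = 1.34e-05). The Col1a2 call at 30 h was lost when any of the 3 untreated libraries or RA-treated replicate 3 was left out, with adjusted p between 0.0113 and 0.0532.

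Col14a1, another fibril-associated collagen, went the other way in time. At 18 h it was at 0.722, 0.454 and 0.800 CPM without RA and 0.521, 0.330 and 0.261 CPM with RA, which overlap. At 78 h it was at 0.611, 0.119 and 0.195 CPM without RA and 5.71, 4.37 and 3.36 CPM with RA, with a log2 fold change of 3.95 ± 0.397 (adjusted p = 1.22e-05). Of the remaining collagens, Col5a2 was lower at 18 h, by -1.02 on the log2 scale, and Col9a3 at 78 h, by -1.08. Col9a3 shares exon positions with Tcfl5 on the opposite strand.

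Among the 6 glycoproteins, Vtn, Fbn2 and Tnc were higher with RA at 2 or more times, and Fn1, Fbn1 and Sparc never passed with all libraries kept. Vtn encodes vitronectin, a ligand of the integrins with the alpha V chain. It had no counts in the 3 day 2 libraries. At 42 h it had 1 count over the 3 untreated and 89 counts over the 3 RA-treated libraries, a ratio of 96.8 with a 95% interval for counting error of 16.9 to 3870. At 78 h it was at 0.360, 0.327 and 0.307 CPM without RA and 10.6, 14.8 and 14.4 CPM with RA, a log2 fold change of 5.33 ± 0.213 (adjusted p = 7.96e-09). The untreated mean was highest at that time, so that Vtn met the limit of 0.5 CPM for the set only through its RA-treated libraries. With 3 counts per library taken for day 2, the RA-treated level at 78 h was at least 99.5-fold higher than on day 2. The interval and the floor cover counting error alone, because duplicate reads of a molecule could not be told apart.

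Fbn2, which encodes the microfibril protein fibrillin-2 of early development, was at 13.9, 25.1 and 19.3 CPM without RA and 135, 123 and 101 CPM with RA at 42 h. The log2 fold change was 2.61 ± 0.171 (adjusted p = 6.42e-07), and it was past the threshold at all 6 times from 18 h. Its relative Fbn1 had log2 fold changes of 0.89 to 0.99 from 18 h to 54 h, which miss the minimum fold. Without RA-treated replicate 2 its value at 30 h was 1.10, and it passed. Tnc, the anti-adhesive glycoprotein tenascin-C, was at 0.634, 0.834 and 0.973 CPM without RA and 2.16, 3.24 and 2.43 CPM with RA at 66 h, with 1.70 ± 0.235 (adjusted p = 0.000228). Fn1, which encodes fibronectin, was the gene with the highest CPM of the glycoproteins, at 396, 463 and 525 CPM without RA and 484, 515 and 416 CPM with RA at 42 h. These libraries overlapped, with a log2 fold change of 0.02 ± 0.0994 (adjusted p = 0.875). Fbn1, Fbn2, Tnc and Fn1 each overlap an exon of a gene on the opposite strand.

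Lecticans are proteoglycans that bind hyaluronan. Ncan, which encodes neurocan, was at 54.6, 58.2 and 57.1 CPM without RA and 12.7, 12.1 and 12.2 CPM with RA at 66 h, a log2 fold change of -2.19 ± 0.0577 (adjusted p = 6.52e-09). It was lower with RA at 42, 54, 66 and 78 h. Bcan, which encodes brevican, was at 1.44, 0.825 and 1.65 CPM without RA and 3.21, 4.0 and 3.39 CPM with RA at 18 h, with 1.41 ± 0.226 (adjusted p = 0.00018). At 30 h the difference was 1.48 ± 0.215 (adjusted p = 0.00256), also 1.48 without RA-treated replicate 2, and the call was lost without any of the 3 untreated libraries or RA-treated replicate 1. At 78 h it was at 3.06, 3.12 and 3.60 CPM without RA and 1.16, 1.16 and 1.44 CPM with RA, with -1.37 ± 0.180 (adjusted p = 9.82e-05). Vcan, which encodes versican and had the highest CPM of the lecticans, was at 184, 170 and 154 CPM without RA and 269, 268 and 284 CPM with RA at 42 h. The groups did not overlap, and 0.68 ± 0.0675 (adjusted p = 1.43e-05) misses the minimum fold.

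Among the 13 receptor genes, 3 were higher and 1 lower with RA at 18 h and 5 were higher at 78 h. Itgb3, the beta partner of alpha V in a vitronectin receptor, was at 6.23, 3.09 and 3.36 CPM without RA and 9.25, 11.1 and 11.3 CPM with RA at 18 h. At 78 h it was at 3.52, 3.48 and 3.15 CPM without RA and 38.8, 42.9 and 44.4 CPM with RA, the largest difference of a receptor gene, with a log2 fold change of 3.65 ± 0.0927 (adjusted p = 3.63e-10). The RA-treated mean was 6.31 CPM at 30 h, 16.2 CPM at 54 h and 42.0 CPM at 78 h, while the untreated mean stayed between 2.18 and 3.38 CPM from 42 h on. Itgav itself, the alpha V chain, had log2 fold changes of -0.02 to 0.38 at all 7 times and never passed. Itgb5, which also pairs with alpha V, had -0.81 at 42, 54 and 66 h, which misses the minimum fold. Itgb8, a further partner of alpha V, was higher at 42, 54 and 66 h, by 1.94, 1.51 and 1.12 on the log2 scale. Without RA-treated replicate 2 it also passed at 30 h, with 1.025.

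Of the laminin-binding alpha chains, Itga3 and Itga7 were higher with RA and Itga6 did not pass at any time. Itga3 was at 55.9, 59.2 and 58.3 CPM without RA and 267, 239 and 227 CPM with RA at 54 h, with 2.06 ± 0.0737 (adjusted p = 8.32e-09). At 30 h it missed the threshold, with 102, 257 and 84.2 CPM in the RA-treated libraries, where replicate 2 stands far above the others. Itga7 was at 1.65, 1.87 and 1.95 CPM without RA and 9.18, 9.90 and 9.84 CPM with RA at 78 h, with 2.41 ± 0.130 (adjusted p = 8.88e-08). Itga7 shares exon positions with Mettl7b on the opposite strand. Itga6 had -0.63 ± 0.0524 at 18 h (adjusted p = 6.89e-07) and 0.14 ± 0.0606 at 78 h (adjusted p = 0.0807). Itga5, the fibronectin receptor chain, was higher at 54, 66 and 78 h, by 1.06 to 1.10 on the log2 scale, and Itgb4, the partner of alpha 6 in hemidesmosomes, at 66 h and 78 h, by 1.17 and 1.37.

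Itga1, a collagen receptor chain, was the only receptor gene lower with RA, and it was so at every time up to 66 h. At 8 h it was at 9.82, 8.45 and 7.89 CPM without RA and 3.65, 2.76 and 1.77 CPM with RA, with -1.66 ± 0.257 (adjusted p = 0.009). Leaving out RA-treated replicate 3 kept this call, and leaving out any other library at 8 h lost it, as did library totals (adjusted p = 0.0134) and the replicate block (adjusted p = 0.017). At 30 h it was at 6.24, 6.40 and 9.80 CPM without RA and 0.914, 2.05 and 1.41 CPM with RA, with -2.35 ± 0.346 (adjusted p = 0.00268), and -2.69 without RA-treated replicate 2. The call at 30 h was lost without any of the 3 untreated libraries, with adjusted p from 0.0116 to 0.0139. At 78 h the difference was -0.49 ± 0.177 (adjusted p = 0.0408), where the untreated level was 3.40 ± 0.424 CPM (SD, n = 3). Itga1 shares exon positions with the annotated gene Gm49395 on its own strand.

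Itgb1, the common beta chain of the collagen, laminin and fibronectin receptors, was the receptor gene with the highest CPM, at 323, 354 and 345 CPM without RA and 353, 370 and 350 CPM with RA at 42 h. The libraries overlapped and the log2 fold change was 0.06 ± 0.0520 (adjusted p = 0.374). Dag1, which encodes dystroglycan, had log2 fold changes of 0.58 to 0.87 from 18 h to 78 h, all under the minimum fold. Per kb of exon, the order at 78 h with RA was led by Itgb1 at 83.4 ± 1.44 CPM per kb (SD, n = 3), then Dag1 at 54.7 ± 2.23, Itga3 at 22.5 ± 2.18, Itga5 at 16.5 ± 0.881 and Itga6 at 15.2 ± 0.394. Further down, Itgb8 at 6.65 ± 0.863 overlapped as mean ± SD with both Itgb3 at 7.12 ± 0.488 and Itgav at 6.41 ± 0.0462. Without RA the order was Itgb1 at 79.1 ± 8.26, Dag1 at 34.9 ± 1.61, Itga6 at 14.0 ± 1.35, Itga3 at 9.93 ± 0.0447 and Itgb5 at 9.28 ± 1.43 CPM per kb, and the last of these overlapped with Itga3 as mean ± SD. Itgb3 stood at 0.574 ± 0.0346 CPM per kb there.

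**Figure D4:**
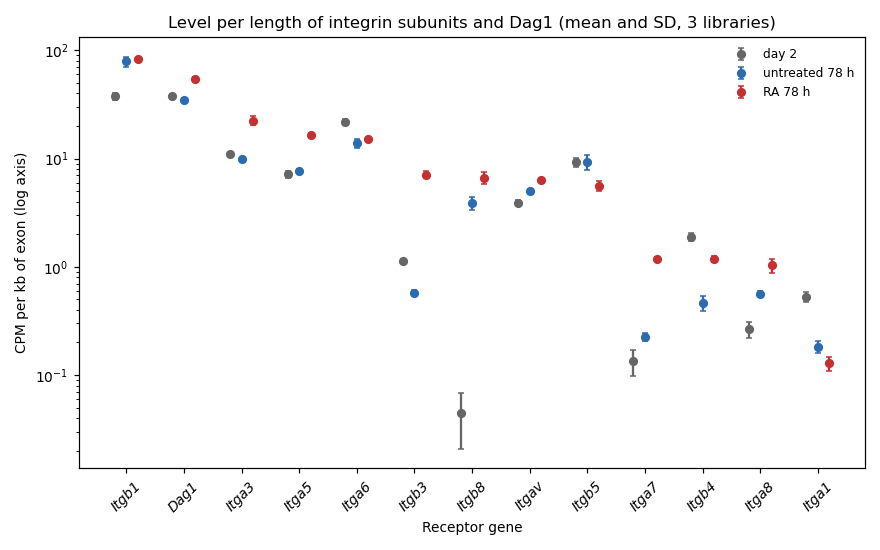
CPM per kb of exon (log axis) of the 13 receptor genes on day 2 (grey) and at 78 h without (blue) and with RA (red), as means with SD over 3 libraries, ordered by the RA-treated level. Itgb3 and Itga7 stand higher with RA, Itgb1 overlaps between the arms, and Itgb8 lies far below both arms on day 2.

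Of the 3 proteases, Plat was higher with RA from 18 h to 54 h and Mmp2 lower at 66 h and 78 h. Plat encodes tissue plasminogen activator, which turns plasminogen into the matrix-degrading protease plasmin. It was at 1.35, 1.03 and 1.33 CPM without RA and 10.8, 12 and 10.5 CPM with RA at 18 h, and at 3.50, 3.72 and 3.57 CPM against 38.2, 40.7 and 34.9 CPM at 30 h. The log2 fold change at 30 h was 3.40 ± 0.130 (adjusted p = 2.37e-05), and 3.33 without RA-treated replicate 2. At 78 h the libraries were at 46.7, 47.9 and 63.2 CPM without RA and 46.8, 52.0 and 56.8 CPM with RA, which overlap, with -0.01 ± 0.106. Mmp2, a gelatinase, was at 50.5, 56.3 and 56.6 CPM without RA and 23.1, 23.3 and 18.8 CPM with RA at 78 h, with -1.31 ± 0.0819 (adjusted p = 2.83e-07). At 42 h its libraries overlapped, with -0.14 ± 0.0881 (adjusted p = 0.21). Mmp14, which activates Mmp2, never passed.

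The RA effect at 78 h was compared with that at 18 h as an interaction over 12 libraries, and a gene passed at an adjusted p under 0.01 whatever the size of the difference. Of 53 genes, 11 had a higher and 16 a lower effect at 78 h, against 13.1% and 14.8% of all genes, or 27 in all against 27.9%. The largest differences were those of Col14a1 at 4.76 ± 0.619 (adjusted p = 1.36e-05), Col1a1 at -4.14 ± 0.335 (adjusted p = 6.83e-08), Col1a2 at -3.19 ± 0.268 (adjusted p = 1.03e-07) and Plat at -3.19 ± 0.206 (adjusted p = 4.79e-09). They were followed by Bcan at -2.81 ± 0.298 (adjusted p = 1.56e-06) and Col9a1 at -2.32 ± 0.368 (adjusted p = 9.98e-05). Between 18 h and 42 h, both of the earlier library series, the effect was higher for 10 genes and lower for 2, against 8.26% and 7.92%, or 12 in all against 16.2%. Those with a higher effect at 42 h included Col12a1 at 4.99 ± 0.429, Lama1 at 2.31 ± 0.226, Itgb8 at 2.04 ± 0.378 and Col4a1 at 1.45 ± 0.138. Those with a lower effect were Ncan at -1.35 ± 0.151 and Col9a1 at -2.03 ± 0.321.

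**Figure D5:**
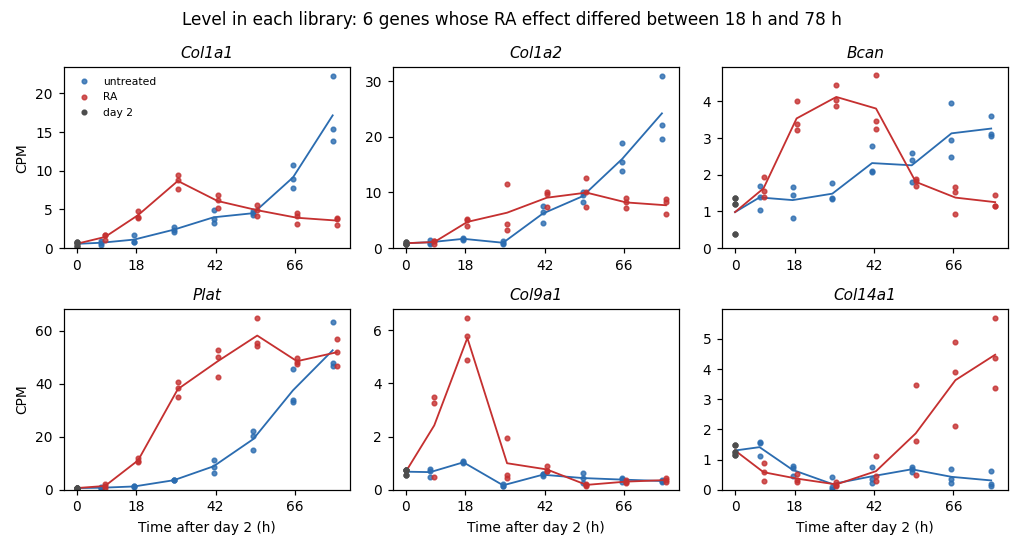
CPM (vertical axes, linear, from 0) in each library against time after day 2 for the 6 genes with the largest difference between the RA effects at 18 h and 78 h, with day 2 in grey, untreated in blue and RA-treated in red and lines through the means of 3 libraries. The blue and red lines cross for Col1a1, Col1a2 and Bcan, meet for Plat, and Col9a1 shows a peak at 18 h and Col14a1 a late climb with RA.

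Much of the set also moved between day 2 and 78 h, a span in which time and RA change together in the RA-treated arm. Between day 2 and 78 h, 24 of 52 genes rose and 7 fell without RA, against 20.3% and 13.6% of all genes, and 27 of 53 rose and 5 fell with RA, against 22.9% and 14.5%. Both comparisons share the day 2 libraries, which are of both library series. Itgb8 was at 0.789, 0.332 and 0.350 CPM on day 2 (replicates 3, 1 and 2) and at 66.6, 69.5 and 84.4 CPM with RA at 78 h, a log2 fold change of 7.19 ± 0.193 (adjusted p = 1.46e-11). Without RA it was at 48.4, 36.8 and 42.7 CPM, a rise of 6.40 ± 0.192. Plat rose by 6.37 ± 0.169 without RA and 6.35 ± 0.142 with RA. Fbn2 rose by 5.81 ± 0.128 with RA (adjusted p = 3.95e-12), from 1.91 to 2.74 CPM on day 2, and Col1a1 by 4.97 ± 0.261 without RA (adjusted p = 3.46e-11). Col6a1, with 6 counts over the 3 day 2 libraries and 401 at 78 h with RA, rose 49.4-fold with a 95% counting interval of 22.5 to 135. All 3 type IV collagen genes rose in both arms, by 2.14 to 3.79 outside Col4a2 with RA at 4.69.

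Fewer genes fell. Fn1 fell by 1.15 ± 0.0620 on the log2 scale without RA and by 1.15 ± 0.0608 with RA, from a day 2 range of 949.5 to 1069 CPM. Lama3, an alpha chain of skin-type laminin, fell by 2.39 without and 2.61 with RA, and Nid2 by 1.32 and 1.6. Itga1 fell in both arms, by 1.54 and 2.04. Nid1 and Itgb4 passed as lower without RA alone, by 1.31 and 2.03, where the values with RA were -0.38 and -0.68. Itgb1 rose in both arms, by 1.07 and 1.15. Between 18 h and 42 h, 12 of 52 genes rose and 1 fell without RA, against 4.92% and 3.96%, and 14 of 53 rose and 3 fell with RA, against 6.07% and 8.07%.

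Genes of the same pathways outside the set were read at 42 h from lists of relatives and partners, where 7.49% of all genes were higher and 4.96% lower. Of 21 tested relatives of the same families, 3 were higher and 2 lower, among them Itga2, another collagen receptor chain, at 4.20 ± 0.231 (adjusted p = 1.85e-07), Spp1, the integrin ligand osteopontin, at 2.10 ± 0.0849, Thbs2 at -1.29 ± 0.168 and Itgb7 at -1.08 ± 0.229. Of 22 focal adhesion adaptors, Parva alone was higher, at 1.45 ± 0.0763 (adjusted p = 1.34e-07). Of 23 proteases and inhibitors, 3 were higher and 1 lower, with Mmp9 at 1.65 ± 0.220 and Timp2 at 1.21 ± 0.0814 among the higher. The lower one was Timp4, an inhibitor of metalloproteinases, with 127 counts over the 3 untreated and 3 counts over the 3 RA-treated libraries, a ratio of 38.9 with a 95% counting interval of 13 to 191. Of 26 collagen maturation enzymes, 5 were higher, with P4ha3 at 2.02 ± 0.292 and P3h2 at 1.96 ± 0.104, both prolyl hydroxylases. Of 18 membrane proteoglycan and hyaluronan genes, 3 were higher and 4 lower, with Hapln1 at 3.81 ± 0.328 and Gpc3 at 1.92 ± 0.0869 as the largest rises and the hyaluronan synthases Has2 at -1.72 ± 0.0990 and Has3 at -1.52 ± 0.151 as the largest falls. None of the 11 tested genes that glycosylate dystroglycan passed at any of the 7 times with edgeR. At 42 h, 6 of them had a higher and 1 a lower level at an adjusted p under 0.05 with no minimum fold, against 27.1% and 23.7% of all genes.

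Markers of cell types moved with RA as well. At 42 h the 7 pluripotency markers summed to 2018 to 2309 CPM without and 352 to 457 CPM with RA, with none higher and 3 lower, and Dnmt3b was the most abundant. The 9 neural progenitor markers summed to 536 to 659 CPM without and 928 to 1079 CPM with RA, with 4 higher and 1 lower. At that time the summed level of 10 extraembryonic endoderm markers was 13.6 to 15.0 CPM without and 49.4 to 54.3 CPM with RA, 4 of the 7 tested were higher, and Dab2 was the most abundant. Mean Sox17 was at 0.161 CPM without and 7.55 CPM with RA, mean Sox7 at 0.329 and 3.48 CPM and mean Gata6 at 0.217 and 2.09 CPM, while Afp, Ttr and Apoa1 had means under 1 CPM in both arms. The sum of 9 mesoderm and mesenchyme markers was 26.6 to 35.8 CPM without and 48.1 to 51.3 CPM with RA, with 3 of 7 tested higher and 2 lower. Mean Meox1 was at 0.685 CPM without and 29.2 CPM with RA, while the median log2 fold change of the 7 tested was -0.05. At 78 h, 5 surface ectoderm markers summed to 20.6 to 23.7 CPM without and 84.5 to 95.8 CPM with RA, with 3 of 4 tested higher, Tfap2c the most abundant, and Krt5 and Trp63 at means under 1 CPM. The sum of 6 endothelial markers was 18.8 to 23.2 CPM without and 50.5 to 65.8 CPM with RA at 78 h, where 2 of 5 tested were higher, mean Cdh5 was at 0.762 CPM without and 24.1 CPM with RA, and mean Emcn was at 0 and 0.0324 CPM. Over all libraries Pecam1 was the most abundant of these 6. Their sum was 114 to 134 CPM on day 2. At 42 h it was 32.0 to 38.3 CPM without and 29.6 to 34.2 CPM with RA, and 0 of 3 tested passed. The part of the cell types in the changes of the matrix and integrin genes was not tested.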

How the data were processed

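Organoid RNA was sequenced by the study as poly(A) libraries of single-end reads. Per the labels, the authors trimmed reads with Trim Galore 0.5.0, removed abundant sequences with Bowtie2 2.3.4.1 and counted reads per gene with featureCounts (Subread 1.6.2) on GRCm38, and the study's methods name STAR for the alignment. The deposited values are raw counts per gene without normalization. The strand setting and the treatment of reads with several matches are not given in the sources used here.

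Columns were matched to samples by library number. CPM were computed with TMM over 45 libraries, and the rule of 0.5 CPM used library totals. Tests used edgeR 4.0.16 in R 4.3.3 (TMM, filterByExpr with minimum count 10 and minimum total 15, glmQLFit and glmQLFTest), fitted on the 6 libraries of each comparison or the 12 of an interaction. The SE is the log2 fold change divided by the square root of F. Calls required adjusted p under 0.01 together with a change over 1 in size on the log2 scale (no minimum in interactions). Exon lengths and overlaps came from GENCODE M21, which placed 54495 genes and may differ from the release counted on. P-values measure the spread between biological replicates.

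The genes, lists and tests were chosen with earlier results of these data known. Named genes were, per role, up to 4 with the largest change among those called at 2 or more times without overlap and the gene with the highest CPM, plus up to 6 with the largest interaction and up to 6 with the largest change from day 2. Other genes of the set are named after their values were seen. From the other lists, up to 2 of the largest called rises and falls at 42 h were named.

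In simulated counts the test at 18 h recovered 200 of 200 changed genes among 16392 with 0 false calls, and the interaction at 78 h recovered 199 of 200 among 17648 with 1. The changed genes were drawn above a minimum mean count and changed by 1.5, 2 or 3 on the log2 scale. Recovery of genes with fewer reads or smaller changes was therefore not measured. No 2 replicates differed by less than sampling noise, the chi-square averaged over genes being 1.97 to 109.6 for 45 pairs. Equal replicate numbers were taken as paired where the correlation of their deviations was over 0.1 in all 3 pairs, which held only at 66 h (0.166 to 0.465). The correlations were also above 0 in all pairs at 30, 54 and 78 h. At 30 h and 78 h each RA-treated library correlated best with its own number, while at 66 h replicate 3 did not. Alternatives were DESeq2 1.42.0, library totals, RLE size factors, no filter, a joint fit of all libraries, the replicate block, another threshold, the earlier library series alone and each library left out in turn.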

Additional observations from a re-analysis of the deposited data

Results flagged for a closer look

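The RA effect on 12 of 53 matrix and integrin genes differed between 42 h and 18 h, and that on 27 of 53 differed between 78 h and 18 h, by the interaction term of edgeR's quasi-likelihood fit over 12 libraries at an adjusted p under 0.01. The shares among all genes were 16.2% and 27.9%. For 6 genes the difference of the log2 fold changes, 78 h minus 18 h, was largest. It was 4.76 for Col14a1, whose effect was -0.83 at 18 h and 3.95 at 78 h. It was -4.14 for Col1a1 and -3.19 for Col1a2, which were higher with RA at 18 h and lower at 78 h. Bcan did the same, with a difference of -2.81. The value was -3.19 for Plat and -2.32 for Col9a1, whose effects of 3.16 and 2.47 at 18 h were -0.01 and 0.17 at 78 h. All libraries at 18 h belong to the earlier and all at 78 h to the later library series, so that time and series cannot be told apart here.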

How the results depend on the processing

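Of 184 counts under alternatives that keep all libraries of a comparison or the earlier series alone, 156 stayed within 1.5 times their value. At an adjusted p under 0.05 with no minimum fold, the genes higher with RA numbered 30, 31, 35, 32, 30 and 30 at the times from 18 h to 78 h in order, and those lower 6, 5, 8, 6, 10 and 10, with 4 lower at 8 h, where 16.2% to 28.9% of all genes were higher and 12.7% to 26.1% lower from 18 h on. With that threshold 15 genes fell from day 2 to 78 h in each arm, against 37.2% of all genes without and 37.3% with RA. From 18 h to 42 h, 25 rose and 9 fell without RA, against 24.0% and 20.8% of all genes. With RA 32 rose and 8 fell, against 28.1% and 27.7%. Library totals moved the median of all genes to 0.14 at 18 h and 0.18 at 30 h, to 0.16 without and 0.20 with RA from day 2 to 78 h, and to -0.13 for the effect at 78 h. With them, 0 genes were lower at 8 h, 1 at 18 h and 3 at 66 h, against 0.436%, 2.25% and 3.96% of all genes. The RA effect was lower at 42 h than at 18 h for 5 genes, against 10.1%. That last count was 6 without a filter and 4 with DESeq2, against 4.90% and 4.40%. Without a filter, 18 genes had a higher effect at 78 h, against 7.95%. In these fits the shares also cover genes of few counts. One fit of 45 libraries called 1 gene higher at 8 h, against 2.66% of all genes. With the replicate number as a block, 0 genes were lower at 8 h (Itga1 lost), against 0.221% of all genes, and no other count moved by over 1.5 times. This includes 15 higher and 5 lower at 66 h, against 7.22% and 4.68%, the only time that met the limit set for pairing.

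Leaving out each library in turn gave, for the times from 8 h to 78 h in order, 0 to 2, 14 to 15, 8 to 19, 16 to 19, 17 to 20, 13 to 17 and 11 to 13 genes higher with RA, and 0 to 1, 1 to 3, 0 to 2, 2 to 3, 2 to 2, 3 to 6 and 5 to 6 lower. Of all genes, 0.361% to 3.71% were higher and 0.124% to 1.39% lower at 8 h. From 18 h on, 2.23% to 8.96% of all genes were higher and 1.30% to 5.78% lower. From day 2 to 78 h, 21 to 24 rose and 7 to 8 fell without RA and 26 to 29 rose and 5 to 6 fell with RA. The shares of all genes were 19.3% to 19.9% and 12.9% to 13.8% without RA. With RA they were 21.5% to 22.2% and 13.9% to 14.6%. From 18 h to 42 h, 11 to 15 rose and 0 to 1 fell without RA, against 3.99% to 4.84% and 2.95% to 3.93%. With RA 13 to 17 rose and 3 to 3 fell, against 5.62% to 6.31% and 6.74% to 8.24%. The RA effect was higher for 7 to 12 and lower for 2 to 5 genes at 42 h, against 5.71% to 9.14% and 5.66% to 7.41%. It was higher for 8 to 14 and lower for 13 to 17 at 78 h, against 10.4% to 15% and 11% to 13.2%. The 2 genes higher at 8 h appeared without RA-treated replicate 3, and the 8 or 9 at 30 h without an untreated library, fits in which the lone or paired libraries are assumed to vary like the rest. The genes lower at 18 h numbered 1 without RA-treated replicate 1 or untreated replicate 3, those at 66 h 3 without RA-treated replicate 2 or untreated replicate 3, those at 30 h 2 without RA-treated replicate 1, the gene that fell without RA from 18 h to 42 h was lost without untreated 42 h replicate 2, and 5 had a lower effect at 42 h without untreated 42 h replicate 1.

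The values of single genes checked here were those of the named genes, mostly chosen for a large change, so that they were likely to hold. Itga1 at 8 h, which is not among them, lost its call with library totals and with the replicate block. With all libraries or 1 library series alone, all 247 values kept their direction and side of the threshold. With a library left out, 254 of 270 did, 13 calls at 30 h were lost (4 of Col1a2, 4 of Bcan, 3 of Itga1 and 2 of Col6a1) and 3 values near 0 turned, with ranges of -0.055 to 0.15 for Lamc1 and -0.095 to 0.12 for Fn1 at 42 h. The cause of these moves was not tested. With 3 libraries a group, folds of genes under 1 CPM rest on few reads.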

Other observations

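At 30 h without RA, where all 3 libraries had low Y-chromosome counts, the mean of 22 of the 53 genes lay below those at both neighbouring times and that of 9 above both. Over all 15905 genes of at least 0.5 CPM, 32.3% lay below and 33.1% above. With RA at 30 h the numbers were 8 below and 17 above, against 25.7% and 28.7% of all genes.

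The 6 neuron markers summed to 218.5 to 232.2 CPM already on day 2, with mean Stmn2 at 139 CPM. Their sum alone therefore does not show neurons. At 78 h the test called 4 of 6 higher and 1 lower with RA, and mean Dcx was at 4.90 CPM without and 47.4 CPM with RA. Their sum at 78 h was 289 to 303 CPM without and 362 to 392 CPM with RA. At 42 h it was 246 to 283 CPM without and 115 to 125 CPM with RA, with 0 of 6 higher and 1 lower. Of 6 neural crest markers, 3 were higher and 1 lower with RA at 78 h, and 0 were higher and 1 lower at 42 h.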
